A study of Mus musculus with 4 samples.

Results

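Interferon-stimulated genes are switched on when interferons bind their receptors at the cell surface. Type I interferons act through receptor-bound kinases and a complex of transcription factors, Irf9 among them, that binds the ISRE, a short promoter sequence, while the response to interferon gamma runs through the GAS sequence. In tumours these genes are read as a sign of interferon signalling, and macrophages and other immune cells often carry many of them without any added stimulus.

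The 9 interferon-stimulated genes described here are Isg15, Ifit1, Ifit3, Irf7, Ifitm3, Bst2, Rsad2, Usp18 and Irf1. They were taken by symbol from the 32285 genes of the count matrices, and each symbol matched 1 row. On GRCm38 they lie on chromosomes 4 (Isg15), 6 (Usp18), 7 (Ifitm3 and Irf7), 8 (Bst2), 11 (Irf1), 12 (Rsad2) and 19 (Ifit1 and Ifit3). Isg15 encodes a ubiquitin-like protein that is joined to other proteins, and Usp18 encodes the enzyme that removes it and also dampens the type I receptor. Ifit1 and Ifit3 encode proteins that act on foreign RNA, Rsad2 encodes viperin, Ifitm3 encodes a membrane protein that blocks virus entry, and Bst2 encodes tetherin, which holds budding virus at the cell surface. Irf7 and Irf1 are transcription factors of the interferon response.

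The measurements are single-cell RNA-seq of DLA tumors, raised by injecting cells of the DLA line into the peritoneum of Swiss albino mice. There were 2 control libraries (Control 1 and Control 2) and 2 libraries of mice that received SP11, an HSP90 inhibitor, over 17 days as an oral dose of 30 mg/kg (Treated 1 and Treated 2). Controls carry the label untreated, and the supplement of the study describes vehicle controls, so whether they were given vehicle is not settled. No age, sex or genotype beyond the stock is given, the tumour is a transplanted line, and nothing says whether a library is 1 animal, so p-values measure the spread between libraries.

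Of 5332 barcodes, 4404 had at least 200 genes and at most 10% mitochondrial UMIs and were kept, between 566 and 1831 a library, with 9574906 to 13024964 UMIs a library. A UMI marks 1 captured RNA molecule, and CPM (counts per 1e6) below are UMIs of a gene per 1e6 UMIs of the barcodes that were summed. Barcodes with at least 5 UMIs of the keratins Krt8 and Krt18 were taken as tumour-gated. Control libraries had 845 and 528 of them, and treated libraries had 1256 and 582. Whenever 4 values follow each other below, they are in this order, each group by its replicate number. Those with fewer keratin UMIs were gated by marker UMIs, which gave 26, 18, 103 and 99 macrophage-gated barcodes. B-gated barcodes numbered 154 and 145 in the treated libraries against 1 and 0 in the controls. A further 26, 12, 228 and 75 barcodes passed no gate. The labels name the cells Lymphoma. In tumour-gated barcodes Krt18, which the gate itself uses, stood between 1635 and 3031 CPM. The lymphocyte genes Cd3e and Thy1 did not exceed 0.82 and 0.10 CPM there. The T cell genes Cd3d, Cd3e, Trac and Trbc2 summed to 1.24, 0.211, 5.62 and 2.89 CPM. Since the gate selects for keratin, these levels do not test the label.

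Some properties of the libraries touch every result. Cell barcodes recurred between libraries: 896 of 4353 distinct barcodes stood in more than 1 library, with 60 to 359 shared by a pair, and 1560 kept barcodes were affected. The UMI totals of barcodes shared by a pair had a correlation between -0.08 and 0.25. Treated libraries held more RNA of other cells inside the tumour gate. The summed level of 5 B cell genes there was 1.04, 1.16, 109 and 58.8 CPM, that of 4 hemoglobin genes was 267, 178, 10605 and 4735 CPM, and that of 5 macrophage genes was 6.12, 6.44, 82.3 and 23.2 CPM. Of the tumour-gated barcodes, 2.25%, 3.41%, 8.52% and 12.4% also passed an immune gate, here the macrophage, B, neutrophil, dendritic or hemoglobin gate. The T and NK gates were not counted, and 3, 0, 14 and 6 tumour-gated barcodes passed the T gate.

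Promoters of the genes show how they differ in known interferon sequences. RefSeq promoters (GRCm38.p6, 250 bases before to 50 after the start) were held for 8 of the 9 genes, Usp18 being the exception. The ISRE letters GAAANNGAAA, on either strand, occurred in 6 of the 8 (Isg15, Ifit1, Ifit3, Ifitm3, Bst2 and Rsad2). Counted by gene in the same way, they occurred in 3.99% of 27025 genes, and in 3.44% of 32851 promoters. The GAS letters TTCNNNGAA, which read the same on both strands, occurred in Ifitm3, Bst2 and Irf1. They occurred in 9.55% of genes and 8.30% of promoters. Another Irf1 promoter held neither sequence. In the following stretches, 5′ to 3′ on the strand of the gene, capitals mark the ISRE matches (overlapping matches are run together) and, for Irf1, the GAS match. Isg15 and Bst2 are shown since both carry ISRE letters, while 33.1% of Isg15 UMIs and 93.1% of Bst2 UMIs lay in tumour-gated barcodes, and Irf1 since it carries GAS letters alone. The Ifitm3 stretch lies just after the start and is limited to the matches. Isg15 is read from chr4:156200836-156200935 (minus), Bst2 from chr8:71537545-71537644 (minus), Irf1 from chr11:53769914-53770013 (plus) and Ifitm3 from chr7:141010716-141010742 (minus).
Isg15: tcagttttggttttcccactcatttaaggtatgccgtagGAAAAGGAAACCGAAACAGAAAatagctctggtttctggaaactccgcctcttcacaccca
Bst2: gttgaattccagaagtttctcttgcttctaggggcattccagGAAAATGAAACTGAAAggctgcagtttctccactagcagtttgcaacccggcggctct
Irf1: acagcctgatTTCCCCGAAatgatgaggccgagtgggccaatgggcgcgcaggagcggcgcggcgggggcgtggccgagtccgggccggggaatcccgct
Ifitm3: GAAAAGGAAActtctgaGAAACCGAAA

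Over all kept barcodes, 4 of the 9 genes were higher after SP11 treatment by about 2-fold, and none was lower. For UMI sums per library the test was the quasi-likelihood test of edgeR, and a gene is called where the Benjamini-Hochberg adjusted p is under 0.05. In all, 10.7% of the 12149 genes tested were called, and 7 of the 9 genes had enough UMIs to be tested. The median log2 fold change of these 7 was 0.93, and that of all genes tested was -0.01. In such sums, more cells of a type and more RNA per cell cannot be told apart.

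Irf7, the factor that drives further interferon production, stood at 3.70, 3.24, 7.54 and 7.91 CPM over all kept barcodes. Its log2 fold change was 1.00 ± 0.23 (SE, adjusted p = 0.00693). Both treated libraries were above both controls. The transcription factor Irf1 stood at 7.60, 7.102, 14.6 and 16.0 CPM and rose by 0.91 ± 0.17 on the log2 scale (adjusted p = 0.00126), and here too the groups did not overlap.

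Ifitm3, by far the most abundant of the 9 genes, stood at 97.2, 106, 239 and 189.6 CPM, a rise of 0.93 ± 0.15 (adjusted p = 0.000261). The level in Treated 1 was the highest. Isg15 stood at 2.87, 3.66, 5.92 and 8.29 CPM, a rise of 0.96 ± 0.25 (adjusted p = 0.0158). The Isg15 call did not hold with DESeq2 (adjusted p = 0.136), with at least 500 genes a barcode (0.0532), without Control 1 (0.0622) or without Treated 2 (0.185). The Irf7 call did not hold with DESeq2 (adjusted p = 0.0836) or without the barcodes found in several libraries, where its log2 fold change was 0.52 (adjusted p = 0.259). The calls for Ifitm3 and Irf1 held in every alternative that was run.

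The remaining genes did not pass the test over all kept barcodes. Tetherin's gene Bst2 was almost level, at 58.9, 61.1, 63.2 and 63.0 CPM, with a log2 fold change of -0.08 ± 0.13 (adjusted p = 0.755). Rsad2 had 5, 11, 20 and 29 UMIs (adjusted p = 0.183), and Usp18 had 8, 9, 11 and 20 UMIs (adjusted p = 0.774). Ifit1 and Ifit3, with 10 and 23 UMIs in all 4 libraries together, were too rare to test.

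**Figure D1:**
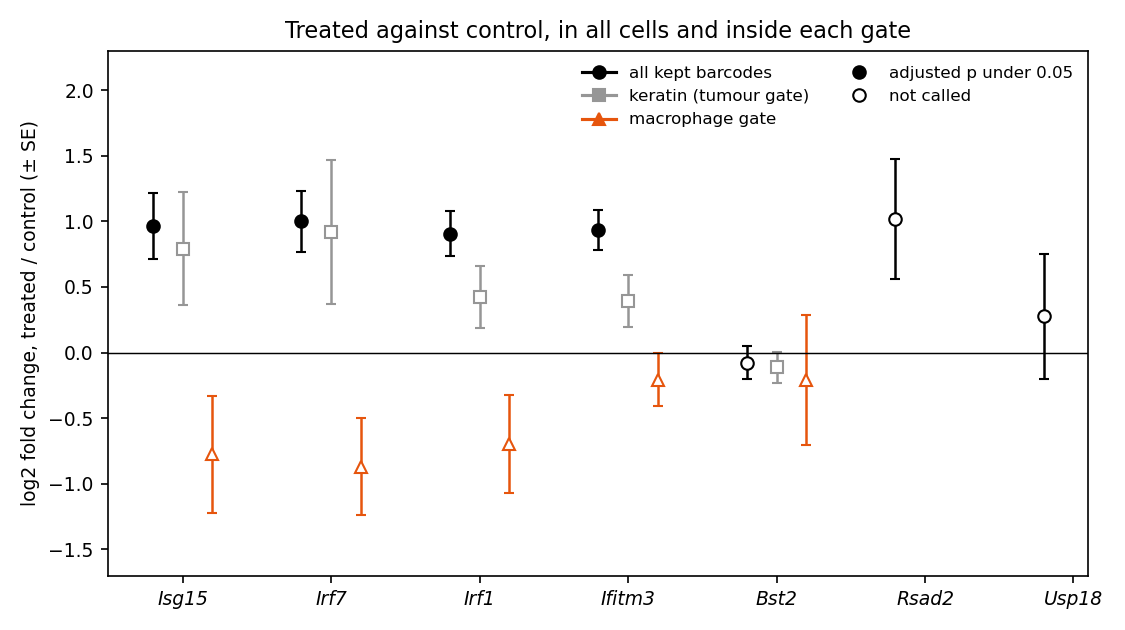
Log2 fold change of treated over control libraries (vertical axis, ± SE from edgeR) for the 7 genes tested, in the sum of all kept barcodes (black), of keratin-gated tumour barcodes (grey) and of macrophage-gated barcodes (orange), with filled symbols where the adjusted p is under 0.05. The 4 filled symbols, for Isg15, Irf7, Irf1 and Ifitm3, all belong to the sum of all kept barcodes, where the values lie between 0.91 and 1.00, and the macrophage-gated values of the same genes lie below 0.

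The question of which cells carry these RNAs was taken up by comparing sums of each gated class with tumour-gated sums of the same libraries, for classes with at least 20 barcodes in a library. Macrophage-gated barcodes had the higher level for all 7 of the genes tested, in 3 libraries. Of all 5349 genes tested in that comparison, 60.3% were called in either direction, with a median log2 fold change of -0.09, while the median over the 7 genes was 5.03. The separation was widest for Irf7 (6.90 ± 0.50, adjusted p = 1.91e-20), Isg15 (6.22 ± 0.51, adjusted p = 1.11e-17) and Ifitm3 (5.93 ± 0.23, adjusted p = 9.88e-36), and smallest for Bst2 (0.90 ± 0.30, adjusted p = 0.00874). Without Treated 2, 4 of the 5 genes that could then be tested were called, beside 1675 of 3966 genes. Without the barcodes found in several libraries it was 4 of 6, beside 2562 of 4263 genes. The Bst2 call was lost without Treated 2 (adjusted p = 0.126) and without the barcodes found in several libraries (adjusted p = 0.0953).

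Isg15 and Ifitm3 show the separation library by library. Isg15 stood at 309, 172, 108 and 143 CPM in macrophage-gated barcodes against 0.726, 1.79, 2.77 and 1.98 CPM in tumour-gated ones. Ifitm3 stood at 6456, 6170.5, 5198 and 4874 CPM against 57.8, 66.6, 111 and 65.5 CPM. For both genes the lowest macrophage-gated library was above the highest tumour-gated library. Bst2 was the exception among the well measured genes, with 124, 191, 115 and 134 CPM against 58.8, 60.3, 59.8 and 60.3 CPM. Its tumour-gated level was the steadiest of the 9 genes, within 58.8 to 60.3 CPM. CPM is relative to depth, and tumour-gated barcodes had median depths of 10935, 17214, 8891.5 and 19843 UMIs against 1814.5, 2663, 1184 and 2179. With depth left as it was, Bst2 was seen in more tumour-gated than macrophage-gated barcodes. The mean shares were 53.1% (control) and 54.4% (treated) against 27.1% and 20.4%.

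**Figure D2:**
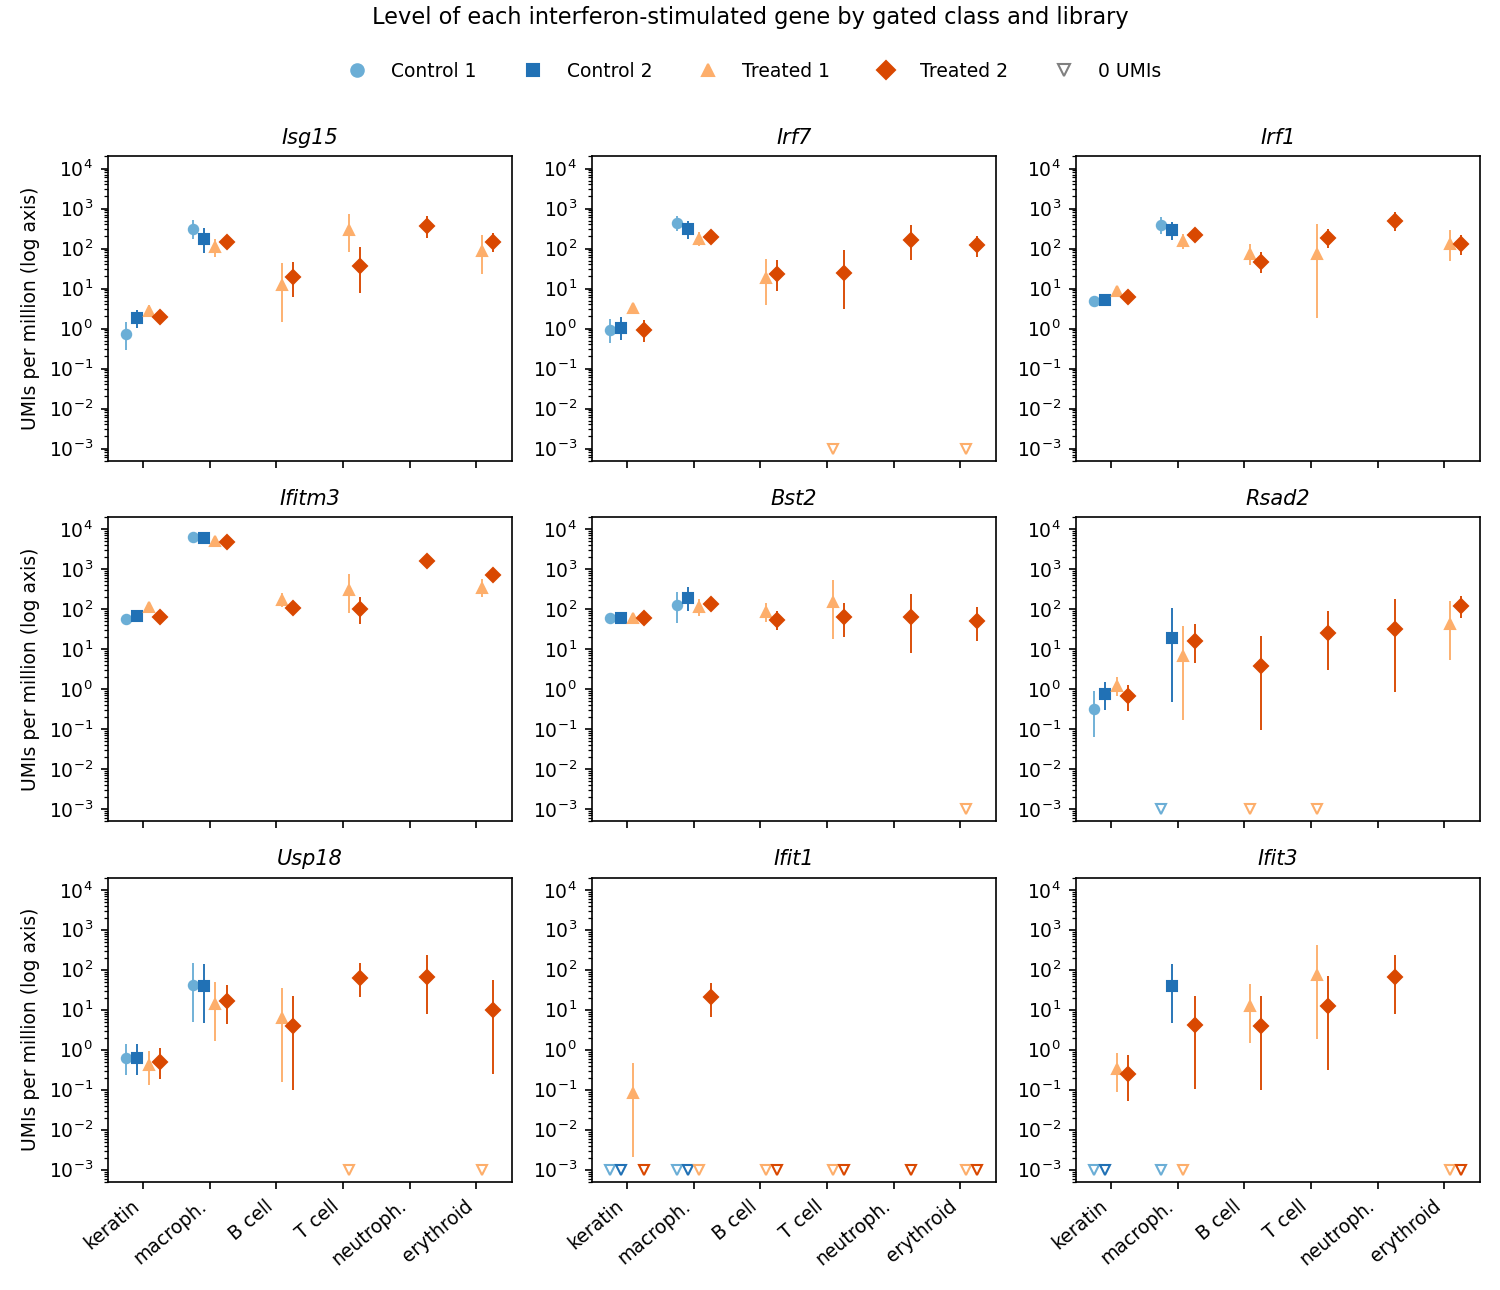
CPM (log axis) of each of the 9 genes in sums of at least 15 barcodes, by gated class and library, with exact Poisson 95% intervals that cover counting error only and open triangles at the bottom for sums with 0 UMIs. Macrophage-gated sums lie far above keratin-gated tumour sums for Isg15, Irf7, Irf1 and Ifitm3, whereas Bst2 lies near 60 CPM in all 4 tumour sums and between 115 and 191 CPM in the macrophage sums.

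The B, T, neutrophil and hemoglobin-rich classes reached the required size in treated libraries only. Dendritic-gated barcodes (5 in Treated 1 and 11 in Treated 2) and NK-gated ones (2 in Treated 2) did not reach it in any library. Dendritic-gated Bst2 stood at 376 to 740 CPM, on 15 UMIs in all. Of all genes compared between B-gated and tumour-gated barcodes, 52.4% were called in either direction, and 1305 of 5349 were higher in B-gated ones. Of the 7 genes, 4 were called higher in B-gated barcodes: Irf7 (3.68 ± 0.91), Irf1 (3.13 ± 0.49), Isg15 (3.06 ± 0.93) and Ifitm3 (0.75 ± 0.29). Here Isg15 stood at 12.3 and 19.2 CPM in Treated 1 and Treated 2, well below the macrophage-gated level in the same libraries. With Lyz2, Fn1 and Vcan added to the macrophage markers, the B-gated Ifitm3 difference turned to -0.57 and was not called, nor was it by DESeq2 (adjusted p = 0.0959). Without Treated 2, 1 B-gated sum was left and 5 of the genes could be tested, with a median log2 fold change of 2.89.

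T-gated and neutrophil-gated barcodes gave 1 sum each, from Treated 2, so these tests assume that a lone sum varies like the other classes. The shares of all genes given for them count calls in either direction. Neutrophil-gated barcodes, 39 in that library, had 5 of 7 genes called higher, 4 of them on more than 3 UMIs, against 31.9% of all genes. Isg15 (11 UMIs, 359 CPM), Irf1 (15 UMIs, 490 CPM), Irf7 (5 UMIs, 163 CPM) and Ifitm3 (50 UMIs, 1634 CPM) were among them, and the Usp18 call rests on 2 UMIs. The median log2 fold change of the 7 genes was 5.68, beside -1.45 for all genes tested. In Treated 2, neutrophil-gated Isg15 and Irf1 stood above the macrophage-gated level, and Irf7 and Ifitm3 below it. The neutrophil and macrophage classes were not tested against each other. T-gated barcodes, 80 in that library, had 3 of 7 called higher, against 31.1% of all genes. These were Irf1 (15 UMIs, 188 CPM), Usp18 (5 UMIs, 62.6 CPM) and Isg15, the last on 3 UMIs.

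Barcodes with at least 50% hemoglobin UMIs, called erythroid here, numbered 36 in each treated library. They had 5 of 7 genes called higher than tumour-gated barcodes. Of all genes, 30.2% were called in either direction, and 712 of 5349 were higher. Without Treated 2, 1 erythroid sum was left and 5 of the genes could be tested, with a median log2 fold change of 3.04. Rsad2 was the gene by which they stood out: 26.2% of all Rsad2 UMIs lay in these barcodes, with 2, 1, 2 and 12 UMIs, against 9.23% in macrophage-gated ones. Red cells lack a nucleus when mature, and these barcodes also held the neutrophil genes S100a8, S100a9 and Retnlg at a summed 6574 and 4587 CPM in the treated libraries. Whether those transcripts have a part in the values was not tested.

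Within macrophage-gated barcodes, 5 of the 9 genes could be tested between treated and control libraries, and none was called, against 9.97% of all 1495 genes. Control sums rest on 26 and 18 barcodes. DESeq2 also called 0 of the 5, and at an unadjusted p under 0.05 edgeR gave 1, Irf7. All 5 fitted values were below 0, with a median log2 fold change of -0.69 beside 0.03 for all genes tested.

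Irf7 stood at 433, 306, 176 and 191 CPM in macrophage-gated barcodes (21, 16, 26 and 47 UMIs). The log2 fold change was -0.87 ± 0.37 (adjusted p = 0.120). Both treated libraries were below both controls. With the wider macrophage gate, which takes in Lyz2, Fn1 and Vcan, the value was -1.06 and was called (adjusted p = 0.0321).

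Isg15 (-0.78 ± 0.44, adjusted p = 0.279), Irf1 (-0.69 ± 0.37, adjusted p = 0.244) and Ifitm3 (-0.21 ± 0.20, adjusted p = 0.583) also had lower CPM in both treated libraries than in both controls. Irf1 stood at 392, 287, 156 and 219.9 CPM. Bst2 overlapped between the groups (-0.21 ± 0.49, adjusted p = 0.862). In the same sums, hemoglobin genes took 248, 306, 59717 and 59368 CPM. The 5 macrophage genes, some of them markers of the gate, took 4064, 3133, 9345 and 9439 CPM. Hemoglobin was also higher in the treated sums of other classes, as in barcodes with no gate (380, 8140, 43043 and 26761 CPM). Whether the cells behind the gate differed or free RNA was added, and the part of either in the values, was not tested.

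After each macrophage-gated barcode was thinned to 500 UMIs, Irf7 was seen in 38.5%, 11.1%, 5.83% and 8.08% of barcodes and Ifitm3 in 92.3%, 94.4%, 88.3% and 86.9%. Without thinning the median depth was 1814.5, 2663, 1184 and 2179 UMIs. For both genes the treated shares lay below the control shares, with p = 0.3333 in a two-sided exact permutation test, the smallest p that 2 against 2 libraries allow. The Irf7 shares overlapped between the groups when thinned to 1000 UMIs (29.2%, 11.1%, 15.7% and 16.7%) and when at least 2 UMIs were asked for, and the Ifitm3 shares overlapped without thinning. In tumour-gated barcodes thinned to 5000 UMIs, Irf7 was seen in 0.751%, 0.783%, 1.22% and 0.522% and Ifitm3 in 22.8%, 26.2%, 33.1% and 25.04%, and no gene of the 9 had shares apart between the groups. As a guide to free RNA, no class of these tumours is known to lack the 9 genes, so shares near 1% in tumour-gated barcodes cannot be told from background.

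Within tumour-gated barcodes, 5 of the 9 genes could be tested and none was called, against 2.31% of all 11588 genes. DESeq2 called none of them, and none had an unadjusted p under 0.05. The median log2 fold change of the 5 was 0.42, beside -0.00 for all genes.

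Ifitm3 stood at 57.8, 66.6, 111 and 65.5 CPM in tumour-gated barcodes, so that Treated 1 alone stood apart and Treated 2 lay between the controls. Its fitted difference was 0.39 ± 0.20 on the log2 scale (adjusted p = 0.379). Leaving out Treated 2 gave 0.76 and a call (adjusted p = 6e-05), and without Treated 1 it was -0.10 (adjusted p = 0.819). With the replicate number as a block it was 0.34 and called (adjusted p = 0.0278).

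Irf7 behaved in the same way, at 0.933, 1.06, 3.17 and 0.907 CPM, from 9, 10, 39 and 11 UMIs (0.92 ± 0.55, adjusted p = 0.461). Without Treated 2 its value was 1.59 (adjusted p = 0.0381), and without Treated 1 it was -0.31 (adjusted p = 0.885). Treated 1 was also the library with the most macrophage and B cell RNA inside the tumour gate. Barcodes that also passed an immune gate held 38.5% of the Irf7 UMIs and 28.0% of the Ifitm3 UMIs of tumour-gated barcodes in Treated 1. In Treated 2 these shares were 54.5% and 25.8%, in Control 1 they were 22.2% and 14.3%, and in Control 2 they were 10.0% and 11.6%. Without them Ifitm3 stood at 50.9, 61.6, 88.3 and 55.9 CPM, and Treated 1 was still the highest.

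Isg15 (0.79 ± 0.43, adjusted p = 0.411) was higher in both treated libraries than in both controls, at 0.726, 1.79, 2.77 and 1.98 CPM, but the counting intervals of Control 2 (1.05 to 2.87 CPM) and Treated 2 (1.27 to 2.94 CPM) overlap. Without the barcodes that also passed an immune gate, Isg15 stood at 0.639, 1.33, 2.07 and 1.23 CPM, and the groups overlapped. Irf1 (0.42 ± 0.24, adjusted p = 0.427) stood at 4.98, 5.06, 8.55 and 6.10 CPM. Without those barcodes it stood at 4.47, 4.53, 7.65 and 5.22 CPM, with the groups still apart. Bst2 had -0.11 ± 0.12 (adjusted p = 0.717). Ifit3 was seen only in treated tumour-gated barcodes among the 4 sums, with 0, 0, 4 and 3 UMIs, and Ifit1 had 1 UMI in all. The B cell gene Cd79a reached 30.8 CPM in tumour-gated barcodes of Treated 1, above the level of Isg15, Irf7 and Irf1 there. In that library the 5 B cell genes summed to 109 CPM in tumour-gated barcodes and 25630 CPM in B-gated ones. The part of B cell RNA in the values was not tested.

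**Figure D3:**
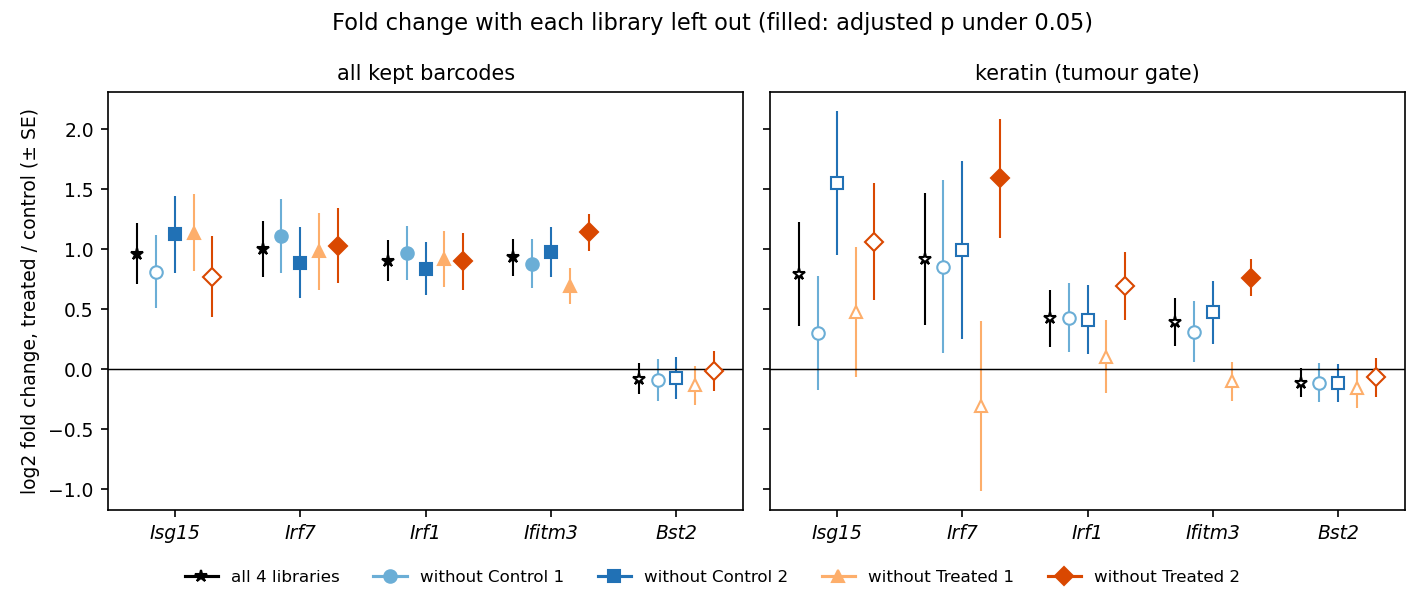
Log2 fold change of treated over control (vertical axis, ± SE) for 5 genes with all 4 libraries and with each library left out in turn, in all kept barcodes (left) and tumour-gated barcodes (right), filled where the adjusted p is under 0.05. On the left Irf1 and Ifitm3 stay filled throughout, and on the right Irf7 and Ifitm3 are filled only without Treated 2 and fall below 0 without Treated 1.

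Whether the treatment difference itself was unlike in the 2 cell classes was tested as an interaction of class and treatment. None of the 7 genes tested was called, against 0.468% of 11315 genes, and none had an unadjusted p under 0.05. Values of macrophage-gated minus tumour-gated difference were -1.51 ± 0.81 for Irf7, -1.47 ± 0.93 for Isg15, -0.97 ± 0.57 for Irf1 and -0.42 ± 0.25 for Ifitm3, each with an adjusted p of at least 0.962. The median over all genes tested was 0.42, but it was -0.10 with DESeq2 and 0.17 with no filter on low counts.

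The rise over all kept barcodes can be split by class, since the CPM of the whole is the sum of what each class adds. No class added most of it for Isg15, Irf7, Irf1 or Ifitm3. For Irf7 the mean rose by 4.26 CPM, of which tumour-gated barcodes added 22.0%, macrophage-gated ones 20.9% and barcodes with no gate 23.1%. The tumour-gated part of Irf7 was 0.924, 1.04, 3.00004 and 0.845 CPM, so it was added by Treated 1 alone.

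Isg15 rose by 3.84 CPM, of which tumour-gated barcodes added 25.6%, macrophage-gated ones 18.7% and erythroid ones 17.7%. Ifitm3 rose by 112 CPM, of which macrophage-gated barcodes added 37.9%, those with no gate 26.0% and tumour-gated ones 18.9%. Its tumour-gated part was 57.3, 65.9, 104.8 and 61.0 CPM and its ungated part 6.78, 5.95, 57.5 and 13.7 CPM, so the first was added by Treated 1 alone and the second mostly by Treated 1. Macrophage-gated Ifitm3 added 32.1, 33.7, 59.0 and 91.9 CPM, more in both treated libraries, in which this class held 5.63% and 9.07% of kept barcodes against 2.84% and 3.18%. Barcodes with no gate had Lyz2 at 1417, 740.01, 3641 and 4309 CPM, and their Ifitm3 level was 2280.3, 1758, 2567 and 1967 CPM. These shares are differences of means of 2 libraries and carry no test.

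**Figure D4:**
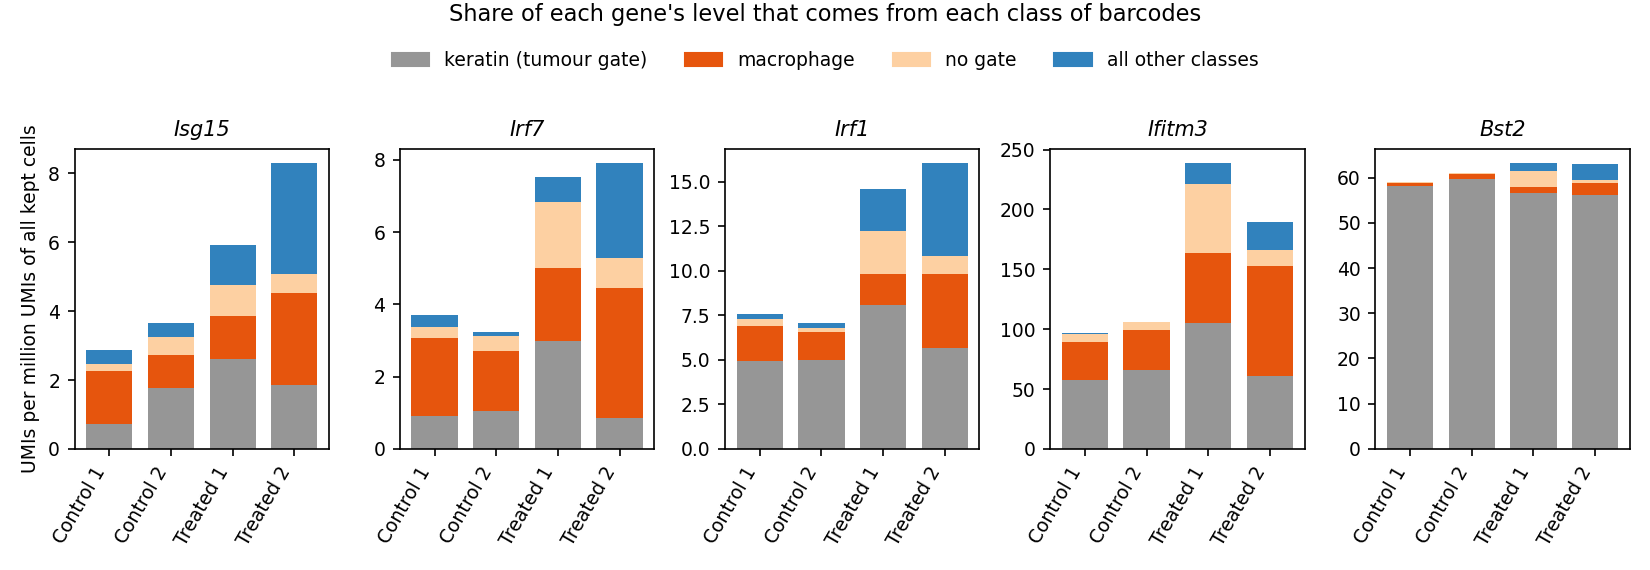
Height of each bar: CPM of the gene over all kept barcodes of 1 library, divided into the parts that lie in keratin-gated tumour, macrophage-gated, ungated and all other barcodes (linear axes from 0, a separate scale for each gene). The grey tumour part of Bst2 makes up nearly the whole bar in all 4 libraries, while for Isg15, Irf7, Irf1 and Ifitm3 the treated bars gain height in several classes at once.

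The wider pathway was read from 7 lists chosen with earlier results known. None of the 10 interferon genes listed as ligands had enough UMIs to be tested in any comparison. Over all kept barcodes, where 10.7% of all genes were called, 0 of 5 receptor genes tested were called. There 7 of 10 signalling genes, 3 of 8 sensors, 18 of 24 other effectors and 10 of 14 interferon gamma targets rose. From the negative regulator list, which also holds the interferon-stimulated gene Isg20, 0 of 5 were called. Zbp1 stands in both the sensor and the effector list. Median log2 fold changes were 0.26, 0.93, 1.198, 1.68, 1.24 and -0.07 in that order.

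Irf9, a DNA-binding part of the type I response, rose by 2.68 ± 0.40 over all kept barcodes, and the myeloid factor Irf5 rose by 2.37 ± 0.39. Among sensors the largest values were those of Ifih1 (2.2997 ± 0.51), Ifi204 (1.98 ± 0.44) and Zbp1 (1.53 ± 0.29). Among effectors Sp100 rose by 3.85 ± 0.32 and Ifi203 by 2.95 ± 0.42, and Ifi44, also called, had 1, 2, 15 and 25 UMIs.

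Ciita, the master switch of MHC class II genes and a gene that B cells use without interferon, was among the called interferon gamma targets, with 0, 3, 45 and 41 UMIs. Igtp (2.28 ± 0.59) and Ifi47 (2.26 ± 0.40), both interferon-induced GTPases, were also called. These lists lie beside the higher number of B-gated and macrophage-gated barcodes in treated libraries, and the part of that in the values was not tested.

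Within macrophage-gated barcodes none of the 26 listed entries tested was called, against 9.97% of all 1495 genes. Within tumour-gated barcodes 5 of 17 other effectors were called, all higher, against 2.31% of all 11588 genes. No receptor, sensor, interferon gamma target or gene of the negative regulator list was called there. Rtp4, Phf11b and Sp100 had few control UMIs and passed the filter on low counts through the treated libraries, and with no filter Phf11b was not called (adjusted p = 0.0521). Ifitm1, a relative of Ifitm3, had 9, 13, 172 and 132 UMIs there (3.30 ± 0.29, adjusted p = 3.99e-06), and Ifi27l2a had 52, 39, 371 and 135 UMIs (2.01 ± 0.38, adjusted p = 0.00649). Without Treated 1 the Ifi27l2a value was 1.05 (adjusted p = 0.00685), without Treated 2 it was 2.59 (adjusted p = 1.51e-28), and without Control 2 it was not called (adjusted p = 0.134). Both stayed called without the barcodes that also pass an immune gate (Ifitm1 3.38, Ifi27l2a 1.81). Barcodes that passed only the T or NK gate were kept in that fit. Of the other 3 called effectors, Rtp4 and Phf11b could then not be tested and Sp100 was not called.

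Rtp4 had 0, 0, 13 and 13 UMIs in tumour-gated barcodes, at least 6.79-fold higher than 3 UMIs over the control group. Sp100 had 5, 3, 39 and 26 UMIs (2.52 ± 0.50, adjusted p = 0.0101). DESeq2 called 1 of these 5 effectors, Ifitm1, which was also the 1 still called without Control 2. Between macrophage-gated and tumour-gated barcodes, 60.3% of all genes were called in either direction, and 1565 of 5349 were higher in macrophage-gated ones. Called higher there were 13 of 13 interferon gamma targets, 7 of 7 signalling genes, 5 of 5 receptors, 20 of 21 other effectors and 3 of 4 sensors. Of 3 genes from the negative regulator list, 2 were higher and 1, Isg20, was lower. Isg20 is itself an interferon-stimulated gene. It stood at 54.8 CPM in tumour-gated and 30.4 CPM in macrophage-gated barcodes, with the libraries pooled. Examples of genes called higher are Gbp3 (7.95 ± 0.92), Irf5 (6.44 ± 0.78) and Ifnar1 (3.64 ± 0.53).

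Among 13 sums of at least 20 barcodes, the genes most like the 9 were found by Pearson's r with the mean of their standardized levels, over 7571 genes. Adam17, a membrane protease, came first (r = 0.978), followed by Gbp2 (0.967), Samhd1 (0.959), Gyg (0.953) and Bcl2a1b (0.953). Of the 9 themselves, Irf7 was closest to that mean (0.922) and Bst2 farthest (0.362). Each of the 9 is itself part of the mean, so its r cannot be set beside those of the other genes. The 13 sums share libraries and differ in depth, so these values describe the pattern and carry no test.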

How the data were processed

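Raw UMI counts per gene and barcode were deposited by the authors for each library. Per the labels, Cell Ranger 7.1.0 and build mm10 were used, and no normalization was applied to the counts. The study's text names hg38 for its single-cell work, which does not hold mouse genes. Groups follow the treatment label. Barcodes with at least 200 genes and at most 10% mitochondrial UMIs were kept, as in the study, and doublets were not called. Gates were at least 5 UMIs of Krt8 and Krt18 (tumour), and, under 5 of these, at least 3 of 11 macrophage genes, 2 of B, T, NK or dendritic genes, or 10 of S100a8 and S100a9 with 1 of a second neutrophil list.

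UMIs were summed per library and class. Sums were tested with edgeR 4.0.16 (R 4.3.3; TMM, filterByExpr, quasi-likelihood test, Benjamini-Hochberg adjustment over all genes tested, 0.05). Class comparisons had the library as a term. The rule was at least 20 barcodes a sum. Since Control 2 had 18 macrophage-gated barcodes, the treatment comparison and the interaction in that class were run with at least 15, a choice made after the data were seen. DESeq2 1.42.0, other limits and libraries left out were alternatives. Exact Poisson intervals (scipy 1.17.1) and the floor of 3 counts cover counting error only. Tests were tried on simulated counts.

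Genes named are the 9 in every comparison and up to 3 called genes with the largest change of each list. Others were named after their values were seen. The genes, lists and gates were chosen with earlier results of these data known. Mx1, Mx2 and Mb21d1 of the lists have no row under these symbols, and 1 gene that the rule names is not reported here. Gene IDs and positions come with GENCODE M21 (GRCm38).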

Additional observations from a re-analysis of the deposited data

Results flagged for a closer look

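The treatment difference of 2 genes of the effector list was lower in macrophage-gated than in tumour-gated barcodes by the test of the interaction. For Ifi27l2a the difference was -1.77 on the log2 scale (edgeR, adjusted p = 3.65e-06), with 2455 and 1891 CPM in macrophage-gated barcodes of the controls, 2013 and 1869 CPM in those of the treated libraries and, in the same order, 5.39, 4.11, 30.2 and 11.1 CPM in tumour-gated ones. For Ifitm1 it was -3.46 (adjusted p = 0.00261), with 21, 0, 23 and 30 UMIs in macrophage-gated barcodes. Neither was called by DESeq2, without Treated 1 or without Treated 2, and Ifitm1 was not called without Control 1, where its only control macrophage sum had 0 UMIs.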

How the results depend on the processing

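Calls for Ifitm3 and Irf1 over all kept barcodes held under every alternative run. The libraries number 2 a group, and those of the 9 genes with at most 3 UMIs on a side were given no log2 value here. Of the 9 genes, DESeq2 called 2 over all kept barcodes, and the wider macrophage gate called 1 lower in macrophage-gated barcodes. With the replicate number as a block, 1 was called in tumour-gated barcodes (same-numbered libraries deviated with r = 0.13, and the labels state no pairing), while 1038 genes were called there and 2220 over all kept barcodes. No other call of the 9 genes moved with the block.

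With a library left out, called genes of the 9 numbered 0 to 2 (tumour, treated against control), 4 to 7 (macrophage against tumour), 2 to 4 (B) and 3 to 5 (erythroid). All genes called then numbered 78 to 425 (tumour, treated against control), 51 to 112 (macrophage, treated against control), 0 to 38 (interaction), 1675 to 3099 (macrophage against tumour), 933 to 2872 (B) and 353 to 1704 (erythroid). For macrophage, B and erythroid against tumour, 5 of the 9 genes could be tested without Treated 2 and 7 without any other library. With a library left out, the log2 values ran from -0.31 to 1.59 (Irf7) and -0.10 to 0.76 (Ifitm3) in tumour-gated barcodes. For Bst2 they ran from -0.60 to 0.0525 in macrophage-gated barcodes, -0.27 to 0.45 in the interaction and -0.0468 to 0.70 for B, and for Ifitm3 from -0.0898 to 0.43 for T.

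DESeq2 called 149 genes in tumour-gated barcodes, 49 in macrophage-gated ones, 759 over all kept ones, 30 in the interaction and 941 for T. In macrophage-gated barcodes 67 were called with no filter on low counts, 86 with at least 500 genes, 68 with at most 1 keratin UMI, 14 with at least 6 marker UMIs, 73 without barcodes found in several libraries and 294 with the wider gate, against 149. Without barcodes found in several libraries, 4 of the 6 genes that could then be tested were called for macrophage against tumour. Signs turned for Bst2 at 0.21 (macrophage-gated, at most 1 keratin UMI), 0.0115 (all kept, without shared barcodes), -0.18 (interaction, DESeq2), -0.0852 (interaction, no filter), 0.0378 (T, DESeq2) and -0.21 (erythroid, no filter). They turned for Usp18 at -0.0718 (all kept, at least 500 genes) and for Ifitm3 at -0.57 (B, wider gate) and -0.20 (T, no filter). Shares in tumour-gated barcodes were apart and higher for 2 genes at 2000 UMIs and 3 without thinning, and lower for 1 at 2 UMIs or more. In macrophage-gated barcodes 1 (Usp18) was higher at 1000 UMIs, where 3 were lower, and 3 were lower without thinning and 2 at 2 UMIs or more. The causes were not tested. The wider gate, the shared barcodes and the barcodes passing both gates (class comparisons) were chosen after seeing the data.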
